A study of Mus musculus with 9 samples.

Results

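The cytosolic ribosomal protein (RP) genes were examined in single-cell RNA sequencing of mouse knee joints. Members were the rows whose symbol was Rpl or Rps followed by a number, with an optional letter, together with Rplp0, Rplp1, Rplp2 and Rpsa, and without the Rps6k kinases and the rows named as pseudogenes with -ps. The rule found 91 of the 24296 genes in the data: 51 of the large subunit, 37 of the small subunit and 3 of the P-stalk. All mice were 129/Sve females, 8 weeks old, and the whole left joint of each was profiled with Seq-Well, a method that catches the polyadenylated RNA of each cell on its own barcoded bead in a well. The 5 sick mice (numbered 1, 3, 4, 5 and 6) had antigen induced arthritis, set off by an injection of mBSA, a methylated bovine serum protein to which they had been sensitized, into the left knee, and were killed 1 week later. The 4 healthy mice (numbered 1 to 4) received phosphate-buffered saline in the same joint and were killed at the same time; whether they had been sensitized is not given in the sources used here. The labels state that arthritis was checked by immunohistochemistry in the sick mice.

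Each ribosome is built from RNA and a full set of RPs, and has a small subunit that reads the message and a large subunit that joins amino acids. A flexible stalk on the large subunit, made of Rplp0, Rplp1 and Rplp2, recruits translation factors. RP messages are among the most abundant of growing cells, start with a C and a run of pyrimidines (the TOP start), and are held back together when growth signalling through mTOR and Larp1 is low. RP genes are also known for their many processed pseudogenes, copies of the spliced message pasted elsewhere in the genome. In the marrow and the inflamed joint, progenitors make many ribosomes, while maturing neutrophils and red cells shut ribosome production down.

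Most members have near-identical copies elsewhere in the genome, so these are given first. In the GENCODE M21 annotation of GRCm38, the members had 1072 pseudogenes that matched a coding sequence at 90% identity or more over at least 50% of its length or that carried the member's name with -ps, and 844 of these copies were rows of the data. The member rows held 552546 counts and the rows of the copies 581645, which is 51.3% of the sum. Copies held more counts than the member itself for 48 members. Of the 91 members, 85 have an annotated coding sequence, and 6 (Rps12l1, Rps4l, Rpl6l, Rps3a2, Rps3a3 and Rpl37rt) are themselves annotated as pseudogenes. These 6 stayed members and were not counted as copies of another member. How reads that match a gene and its copy equally well were assigned is not given in the sources used here. A member's count is therefore the count of its row, and results below are also given with the copies added where that changed them.

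Rpl24, a large subunit protein (chr16:55966275-55971435, + strand), shows the size of the issue. Its row held 43 counts over 9 mice, against 2794 in the row of its copy Gm9385 (chr9:116040593-116041064, - strand), and all 5 of its copies in the data together held 5599. Over 471 aligned coding bases the gene and this copy differed at 1 base. The stretch around it, coding bases 283 to 342 written 5′ to 3′ with the differing base in capitals, is:
Rpl24: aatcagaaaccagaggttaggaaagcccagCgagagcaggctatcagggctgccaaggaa
Gm9385: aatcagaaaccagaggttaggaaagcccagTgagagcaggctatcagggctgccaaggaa
Rps13, a small subunit protein (chr7:116331505-116334195, - strand), held 696 counts against 6769 in Rps13-ps1 (chr8:87047689-87048226, + strand), from which it differed at 2 of 453 coding bases. Both differences lie in the last 60 coding bases:
Rps13: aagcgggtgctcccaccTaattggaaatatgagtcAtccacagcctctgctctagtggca
Rps13-ps1: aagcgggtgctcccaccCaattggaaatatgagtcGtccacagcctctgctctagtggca

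Rps27, a small subunit protein with a zinc finger, has a pair of relatives in the set that bear on what can be told apart. Rps27 (chr3:90212522-90213651, - strand) held 272 counts, Rps27rt (chr9:114982366-114982739, - strand) 1384 and Rps27l (chr9:66946086-66949516, + strand) 4845. The coding sequences of Rps27 and Rps27rt were identical over 252 bases, so counts in that part cannot be assigned to either. Rps27l differed from Rps27 at 60 of 252 bases (76.2% identity), spread over its whole length, and is distinguishable. Capitals mark the bases that differ from Rps27:
Rps27: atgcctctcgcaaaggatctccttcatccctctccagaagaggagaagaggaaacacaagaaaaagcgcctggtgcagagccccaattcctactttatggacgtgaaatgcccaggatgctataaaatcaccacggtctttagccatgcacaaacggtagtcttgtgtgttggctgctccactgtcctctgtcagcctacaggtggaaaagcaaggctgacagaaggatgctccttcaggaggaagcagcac
Rps27rt: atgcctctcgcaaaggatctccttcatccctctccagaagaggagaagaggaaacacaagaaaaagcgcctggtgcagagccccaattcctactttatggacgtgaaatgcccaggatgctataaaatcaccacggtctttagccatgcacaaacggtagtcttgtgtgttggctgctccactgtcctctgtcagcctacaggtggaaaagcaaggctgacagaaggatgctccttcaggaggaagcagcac
Rps27l: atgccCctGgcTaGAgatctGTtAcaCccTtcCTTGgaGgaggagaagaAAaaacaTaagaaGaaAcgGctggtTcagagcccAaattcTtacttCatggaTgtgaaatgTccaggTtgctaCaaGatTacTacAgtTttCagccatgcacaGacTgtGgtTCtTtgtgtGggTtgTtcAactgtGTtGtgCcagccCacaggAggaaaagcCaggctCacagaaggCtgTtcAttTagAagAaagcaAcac

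Counts per member ran from 7 (Rpl39l) to 38633 (Rps19). The most abundant rows were Rps19 with 6.99% of all member counts, Rps14 with 6.59%, Rpl32 with 5.71%, Rpl41 with 4.96% and Rps18 with 3.91%; a count stands for a captured molecule, so it was not divided by length. Members without an annotated copy included Rpl41 (27397 counts) and Rpl8 (8842 counts), but also the rare Rpl39l and Rpl3l (132 counts). The median count was 5113 for the 6 members with no copy, 6059 for 24 with 1 to 5 copies, 2016 for 36 with 6 to 15 and 569 for 19 with over 15. Each copy was assigned to 1 member only, and equal matches to Rps27 and Rps27rt went to Rps27. Rps27rt is therefore among the 6 although it shares the copies of Rps27. Those with over 15 copies held a median of 8.32% of the counts of their family. Rpl11 with 550 counts against 17803 in its copies, Rpl15 with 438 against 32188 and Rpl21 with 359 against 9587 stood at the low end. Rps3a, a small subunit protein, was counted mostly in Rps3a3 (13624 counts), an annotated processed pseudogene that overlaps Pde4d on its strand (chr13:108670603-108671397, + strand), against 748 in Rps3a1.

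**Figure D1:**
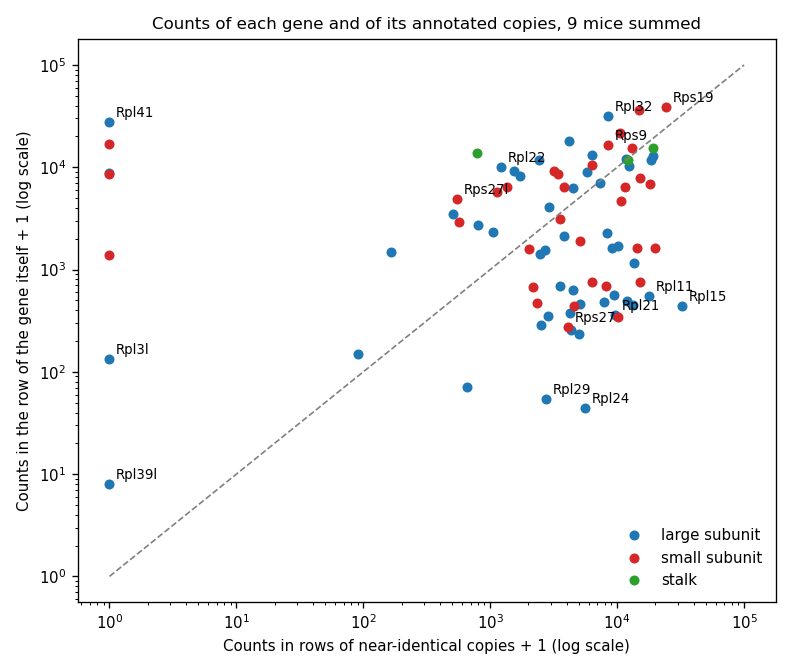
Counts in the row of each of the 85 members with a coding sequence (vertical axis) against counts in the rows of its near-identical copies (horizontal axis), both plus 1 on log scales and summed over 9 mice; the dashed line marks equal counts. The 48 members below the line, Rpl24 with 43 counts among them, have more counts in copies than in their own row, and Rpl41 sits at the left edge with no copy.

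Letters like those of a TOP start were looked for in RefSeq promoters of GRCm38.p6, on the gene's strand. The window was the 15 bases before and the 15 after each annotated start, and 66 members matched with 78 promoters. The letters could lie anywhere in the window, so a match does not show that the message begins with them. The letters CTTTCC, a C followed by pyrimidines, were in 11 of 78 member windows (14.1%) and in 465 of 32851 windows of all genes (1.42%). A looser form, C followed by at least 4 further C or T, which can overlap the first, was in 45 of 78 (57.7%) and in 36.4% of all. Of the 11 genes with CTTTCC the 4 with the most counts were Rpl35, Rpl35a, Rps10 and Rpl18. In none of these 4 do the letters begin at the annotated start. Their windows are written 5′ to 3′ with CTTTCC in capitals (Rpl35 at chr2:39005117-39005146, - strand, Rpl35a at chr16:33056467-33056496, + strand, Rps10 at chr17:27635230-27635259, - strand, and Rpl18 at chr7:45718056-45718085, + strand):
Rpl35: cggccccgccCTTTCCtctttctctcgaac
Rpl35a: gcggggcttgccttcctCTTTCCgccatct
Rps10: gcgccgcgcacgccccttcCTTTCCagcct
Rpl18: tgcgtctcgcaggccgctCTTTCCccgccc

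The 16749 kept cells came to 876 to 1399 cells and 896930 to 1514252 counts per healthy mouse, and to 1397 to 3850 cells and 1589079 to 4675909 counts per sick mouse. The labels give no sequencing batch, so a batch that followed the groups cannot be told apart from them. Cells were gated by distinct marker genes, none of them an RP gene: 9601 cells entered a class and 7148 did not, and 5 classes had enough cells in enough mice to be compared. These were neutrophils (1878 cells, of which 1016 were within 1 of a limit of the gates), erythroid cells (3554), monocytes or macrophages (1655), granulocyte progenitors (925) and eosinophils (365; healthy mouse 4 had 10 and was left out there). Gated cells held a median of 10 of 22 neutrophil, 8 of 28 erythroid, 5 of 15 monocyte or macrophage, 5 of 9 granulocyte progenitor and 4 of 10 eosinophil markers in their own class. Neutrophil markers were not absent elsewhere: their summed level, as counts per 1000000 counts (CPM), was 85810 in neutrophils, 34175 in granulocyte progenitors, 37755 in eosinophils, 17758 in erythroid cells and 16655 in monocytes or macrophages. The last 4 classes held less of their own markers: 18041, 27579, 9984 and 8956 CPM in that order. Haemoglobin genes took 17.6%, 35.3%, 39.7% and 37.4% of all counts in healthy mice 1 to 4 and 10.2% to 27.9% in sick mice, and healthy mouse 1 thus stands apart from the other healthy mice. In the whole joint, fewer cells of a type and less RNA per cell cannot be told apart. A total of 8 barcodes occurred in more than 1 mouse (16 cells).

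The first comparison asked whether arthritis changed how much of the joint's RNA is RP message. RP genes took 3.00%, 2.40%, 2.05% and 2.15% of all counts in healthy mice 1 to 4 and 3.23%, 2.95%, 2.82%, 2.80% and 2.73% in sick mice 1, 3, 4, 5 and 6. Sick mice lay above healthy mice 2 to 4, and healthy mouse 1 lay among them. The means were 2.40% ± 0.428 (SD, n = 4) and 2.91% ± 0.197 (SD, n = 5), with a two-sided exact permutation p of 0.0794 over all splits of the mice, of which 0.0159 is the smallest possible. When haemoglobin, mitochondrially encoded and ribosomal RNA-like genes were left out of the total, the order turned round. RP genes then took 4.08%, 4.40%, 4.49% and 4.79% in healthy and 3.85%, 3.73%, 4.05%, 3.86% and 4.07% in sick mice, with no overlap (4.44% ± 0.292 and 3.91% ± 0.144, exact permutation p = 0.0159). Beside it, the mean share of each group of genes left out was lower in sick mice. Haemoglobin genes took a mean of 32.5% in healthy and 19.7% in sick joints, with overlapping groups (exact permutation p = 0.0635). Ribosomal RNA-like genes took 5.03% and 1.82% (exact permutation p = 0.0159), and mitochondrially encoded genes 7.81% and 4.00% (exact permutation p = 0.0317).

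With the copies added, the share of all counts was 5.28% ± 1.43 (SD, n = 4) in healthy and 5.93% ± 0.722 (SD, n = 5) in sick joints (exact permutation p = 0.381). On the reduced total it was 9.64% ± 1.11 and 7.97% ± 0.752 (exact permutation p = 0.0317), with overlapping groups. The copies' part of the counts of members and copies together was 56.4%, 60.4%, 46.8% and 50.3% in healthy and 51.7%, 51.9%, 56.2%, 48.6% and 44.6% in sick mice, so libraries differed in it within both groups (exact permutation p between groups 0.429).

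**Figure D2:**
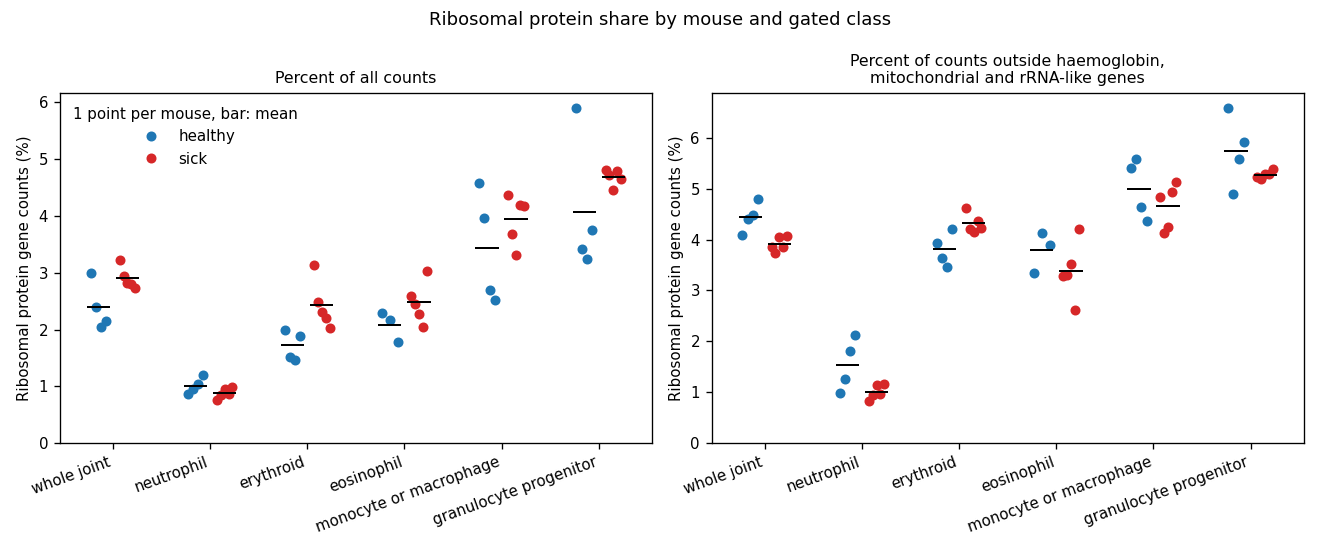
RP gene counts as a percent of all counts (left) and of counts outside haemoglobin, mitochondrially encoded and ribosomal RNA-like genes (right), 1 point per mouse with the group mean as a bar, in the whole joint and 5 gated classes. In the whole joint the healthy mean is below the sick mean on the left (2.40% and 2.91%) and above it on the right (4.44% and 3.91%); neutrophils have the lowest share in both panels.

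Within gated classes, 1 of 5 had groups that did not overlap. Erythroid cells, which fill with haemoglobin as they mature, had RP shares of 1.99%, 1.52%, 1.47% and 1.89% in healthy mice and 3.14%, 2.48%, 2.31%, 2.20% and 2.03% in sick mice. The lowest sick mouse, sick 6, was only just above the highest healthy mouse, healthy 1. The means were 1.72% ± 0.263 (SD, n = 4) and 2.43% ± 0.427 (SD, n = 5), a ratio of 1.42, with an exact permutation p of 0.0159 that became 0.0794 after Benjamini-Hochberg adjustment over the 5 classes. With the copies added the erythroid means were 3.65% and 4.91% and the groups overlapped (exact permutation p = 0.111). On the reduced total the means were 3.81% and 4.32%, a ratio of 1.13, with overlapping groups (exact permutation p = 0.0317, not adjusted). With copies on that total they were 8.07% and 8.67% (exact permutation p = 0.460).

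The other classes gave no call. Neutrophils had 0.863% to 1.19% in the healthy and 0.766% to 0.986% in the sick mice (adjusted exact permutation p = 0.298). Monocytes or macrophages had 2.53% to 4.58% and 3.32% to 4.37% (adjusted exact permutation p = 0.333), and granulocyte progenitors 3.24% to 5.91% and 4.45% to 4.81% (adjusted exact permutation p = 0.333). Healthy mouse 1 had the highest healthy value in both of these classes, 4.58% and 5.91%, and, of the healthy mice, the least haemoglobin in them, 6.74% and 4.37%, against 18.2% to 27.4% and 21.5% to 29.9% in the other healthy mice; the part of haemoglobin in the difference was not tested. The share in eosinophils ranged from 1.78% to 2.29% across 3 healthy mice and from 2.04% to 3.04% across 5 sick mice (adjusted exact permutation p = 0.298). Whether the sick-minus-healthy difference itself differed between classes was tested for all 10 pairs, and the smallest adjusted exact permutation p was 0.317, for neutrophils against erythroid cells.

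The classes of 1 mouse were then compared with each other. Granulocyte progenitors, the dividing precursors that fill the first neutrophil granules, had the highest mean RP share, 4.41% of counts over 9 mice. Monocytes or macrophages followed with 3.72%, then erythroid cells with 2.12%, and neutrophils were lowest with 0.938%; eosinophils had 2.33% over 8 mice. Neutrophils were below granulocyte progenitors in 9 of 9 mice, at a median of 0.212 times their share (0.146 to 0.321), with an adjusted exact sign-flip permutation p of 0.00781. They were below eosinophils in 8 of 8 mice, at a median of 0.396 times (adjusted exact sign-flip permutation p = 0.00977). Of the 10 pairs, 9 had an adjusted p of 0.0217 or less by this exact permutation test. Erythroid cells and eosinophils could not be ordered: their difference was -0.186 percentage points with an SD of 0.489 (n = 8, adjusted exact sign-flip permutation p = 0.320). On the reduced total the same 9 pairs had an adjusted p of 0.0304 or less by the exact permutation test, with 4.09% in erythroid cells and 4.81% in monocytes or macrophages.

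Erythroid cells were split by stage, a split added after these results were seen. Cells with the larger part of early markers (such as Klf1, Gata1 and Tfrc, the transferrin receptor) were called early and those with the larger part of late markers (such as Alas2 and Slc4a1) late. Early cells made up 11.9%, 14.95%, 4.72% and 10.9% of gated erythroid cells in healthy mice and 26.95%, 20.3%, 19.9%, 17.2% and 16.8% in sick mice. No sick mouse overlapped a healthy mouse, and the means were 10.6% ± 4.30 (SD, n = 4) and 20.2% ± 4.06 (SD, n = 5; exact permutation p = 0.0159, the smallest possible). The RP share of early cells was 4.34% to 5.88%, against 1.21% to 1.88% in late cells of the same mice. It was higher in 6 of 6 mice with at least 20 early cells (means 5.08% and 1.62%, exact sign-flip permutation p = 0.0313, the smallest that 6 mice allow). Only healthy mouse 1 of the healthy mice had 20 early cells, so early cells were not compared between groups. In late cells alone the share was 1.41% ± 0.248 (SD, n = 4) in healthy and 1.70% ± 0.155 (SD, n = 5) in sick mice (exact permutation p = 0.0635), and on the reduced total 3.34% and 3.36% (exact permutation p = 0.968). The sick-minus-healthy difference was 0.285 percentage points in late cells and 0.714 in all erythroid cells.

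**Figure D3:**
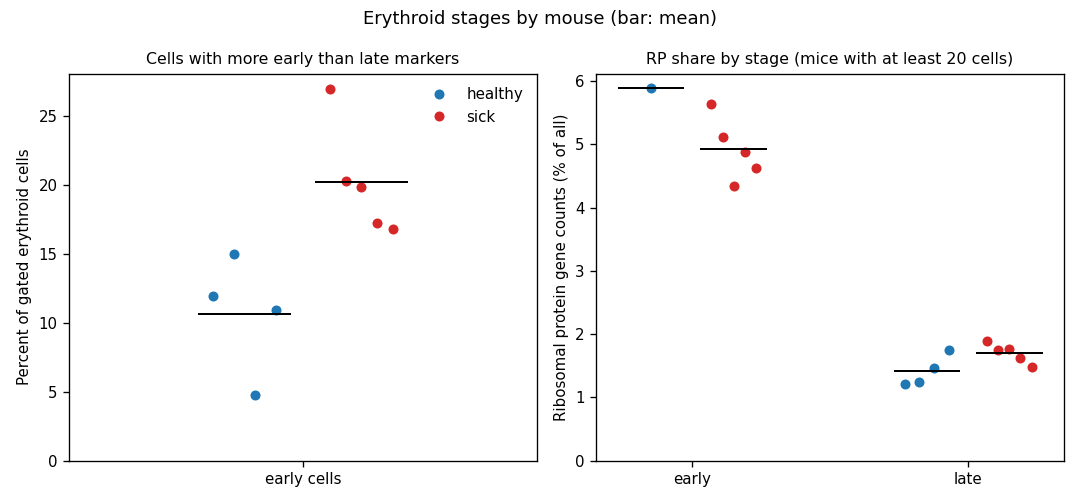
Left: percent of gated erythroid cells with more early than late markers, 1 point per mouse with the group mean as a bar; the sick mice (16.8% to 26.95%) lie above the healthy mice (4.72% to 14.95%). Right: RP share of all counts in early and late erythroid cells for mice with at least 20 such cells, 4.34% to 5.88% in early and 1.21% to 1.88% in late cells.

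Neutrophils were split in the same way by immature markers (such as Camp, Ngp and Ltf) and mature markers (such as Cxcr2, Retnlg and Mmp9). Of the gated neutrophils, 1263 lay in a cluster with Mmp8, Retnlg, Cxcr2 and Mmp9 among its top genes. Another 273 lay in one with Ltf, Ngp and Camp. The names immature and mature therefore stand for this marker rule only, which cannot tell how many neutrophils were immature. Cells called immature made up 91.6% ± 3.12 (SD, n = 4) of gated neutrophils in healthy and 89.7% ± 4.24 (SD, n = 5) in sick mice (exact permutation p = 0.524). Their RP share was 1.01% and 0.876% (exact permutation p = 0.111), and on the reduced total 1.55% and 1.00% (exact permutation p = 0.0635). With the copies added it was 2.15% in healthy and 1.69% in sick mice, with overlapping groups (exact permutation p = 0.0317, not adjusted). Haemoglobin took 5.58% to 31.9% of the counts of these cells in healthy mice and 2.77% to 9.83% in sick mice, and its part in these differences was not tested. No healthy mouse had 20 cells called mature, so those cells were not compared between groups.

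Single members were then tested between sick and healthy mice with edgeR's quasi-likelihood test over all genes. In the whole joint 0 of the 85 members tested passed an adjusted p of 0.05, where 97 of 10323 genes passed (0.94%). Unadjusted, 1 member was above healthy and 6 were below at p under 0.05, where 7.43% and 6.38% of all genes were (13.8% together), and DESeq2 also called 0 (2.44% of all genes with a DESeq2 adjusted p were called). The median log2 fold change was -0.10 over members tested and -0.02 over all genes. Members tested are those that passed the filter on low counts. Levels of members are given below as raw CPM, while these log2 fold changes are after scaling of the libraries (TMM).

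Rpl3l, the striated-muscle paralogue of Rpl3 (a large subunit protein near the site where amino acids are joined), had the largest fold change. Its level was 3.30, 1.11, 3.58 and 2.22 CPM in healthy and 7.003, 8.77, 9.44, 9.91 and 5.30 in sick mice. These raw levels did not overlap, but after scaling the log2 fold change of 1.27 ± 0.40 (SE) did not pass (edgeR adjusted p = 0.162). Only 132 counts lay behind it. Cells gated as skeletal muscle held 7 of them (29.7 CPM over all mice) and neutrophils 38 (27.7 CPM), and neutrophils took 3.93% to 18.6% of healthy and 10.6% to 14.1% of sick cells.

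Rpl3l within classes was examined after its values were seen, so its levels are described with no test. Neutrophils had 6.51, 0, 24.6 and 14.8 CPM in healthy mice, from at most 1 count each, and 23.8, 35.7, 49.0, 55.6 and 11.9 CPM in sick mice, from 3 to 11 counts each. In erythroid cells the highest mouse, healthy 4, had 7.75 CPM. Neutrophils were above erythroid cells in 8 of 9 mice (means 24.6 and 3.86 CPM), above monocytes or macrophages in 8 of 9 (mean 6.66) and above granulocyte progenitors in 8 of 9 (mean 2.47), and they were above eosinophils in 5 of 8 (means 25.9 and 13.2 CPM). The summed RP share was lowest in neutrophils.

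The other extremes in the whole joint were small and none passed. Rpl10a, a large subunit protein, had a log2 fold change of -0.61 ± 0.22 (SE; edgeR adjusted p = 0.234), from 31.1 to 60.2 CPM in healthy and 26.2 to 39.0 CPM in sick mice. With its copies added the value was -0.34. Rpl10l, an autosomal retrogene of the X-linked Rpl10, had -0.56. Rps3a1 had -0.55, which became -0.13 with its copies, though Rps3a3, itself a member, was not among those copies. On the other side were Rpl10 with 0.32, which became -0.10 with its copies, and Rps19 with 0.25. Rps19, a small subunit protein whose loss causes red cell aplasia in people, had 1751, 1278, 1168 and 1570 CPM in healthy and 2411, 2058, 2182, 2092 and 1943 CPM in sick mice. These raw levels did not overlap, but after scaling the difference did not pass (SE 0.15, edgeR adjusted p = 0.479). Among the other most abundant members the log2 fold changes were 0.04 for Rps14, -0.08 for Rpl32, -0.10 for Rpl41 and 0.13 for Rps18, each with an SE of 0.13 or 0.14.

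No member of a paralogue pair passed the test, and differences within pairs were not tested. Rpl3 had -0.43 ± 0.27 (SE) beside the 1.27 of Rpl3l. Rpl22, which binds RNA outside the ribosome too, had -0.13 and Rpl22l1 0.11. Rps27 had 0.23 and Rps27l 0.06, Rpl36a -0.05 and Rpl36al 0.08, and Rpl7 0.03 and Rpl7l1 0.05. Rpl39 had -0.03, while its testis paralogue Rpl39l, with 7 counts in all, was not tested. Rpl39l was listed at 0 in 4 of 4 healthy mice.

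In erythroid cells 0 of 74 members tested passed (1.19% of all genes did), and 8 were above healthy at an unadjusted p under 0.05, with 0 below (6.65% of all genes were above at that level, 12.4% in both directions). The median log2 fold change was 0.22 over members tested and 0.01 over all genes. Rplp0, the base of the stalk, had 569, 354, 348 and 473 CPM in healthy and 913, 871, 682, 679 and 668 CPM in sick mice. These raw levels did not overlap, but after scaling the log2 fold change of 0.58 ± 0.18 (SE) did not pass (edgeR adjusted p = 0.128). Rps19 had 0.61 ± 0.19 (SE; edgeR adjusted p = 0.130), Rpl6 0.64 and Rpl36 0.79, and at the other end stood Rpl9 with -0.81, Rpl21 with -0.63 and Rpl15 with -0.47. The last 3 have over 15 copies each, and with copies added their values became 0.49, -0.37 and 0.28. DESeq2 gave no adjusted p for 24 of the 74 members and called 3 of the others higher (5.59% of all genes with a DESeq2 adjusted p were called): Rps19 with 0.58 (DESeq2 adjusted p = 0.0137), Rplp0 with 0.54 and Rps18 with 0.56. The same 3 were called by edgeR without the filter on low counts (0.646% of all genes were called). Rplp0 and Rps18 were named after their values were seen.

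In neutrophils 0 of 39 members tested passed (1.57% of all genes did), and 10 were below healthy at an unadjusted p under 0.05 (7.47% of all genes were, 13.6% in both directions). The median log2 fold change was -0.41 over members tested and -0.01 over all genes. Rplp1, a stalk protein, had 143 CPM in healthy mouse 1 and 289, 270 and 310 CPM in healthy mice 2 to 4, against 124, 146, 131, 131 and 139 CPM in sick mice. Healthy mouse 1 lay among the sick mice, and the log2 fold change was -1.07 ± 0.32 (SE; edgeR adjusted p = 0.119). Haemoglobin genes took 5.55% of neutrophil counts in healthy mouse 1, 14.8%, 30.6% and 28.7% in healthy mice 2 to 4 and 2.77% to 10.1% in sick mice; its part in the difference was not tested. Without healthy mouse 1, 4 members were called lower (4.75% of all genes were called), with Rplp1 at -1.37, Rpl14 at -1.40, Rpl13 at -1.38 and Rps18 at -1.37 (edgeR adjusted p = 0.00825 to 0.0349). With copies added, 2 of 71 were called lower (1.68% of all genes were called): Rplp1 at -1.14 (edgeR adjusted p = 0.0489) and Rpl13 at -1.48 (edgeR adjusted p = 0.0202), where Rpl13 and Rps18 were named after their values were seen. Rpl14 had -1.14 and Rpl22 -1.04 with all mice, and Rps9 with 0.53, Rpl37 with 0.10 and Rps3 with 0.06 were the highest.

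In monocytes or macrophages 0 of 60 members tested passed (0.389% of all genes did). Rps27l, a p53 target, was the highest with 0.63 ± 0.22 (SE; edgeR adjusted p = 0.250), followed by Rpl22l1 with 0.45 and Rps15 with 0.30, and Rpl13a (-0.66), Rpl23 (-0.56) and Rpl19 (-0.49) were the lowest. In granulocyte progenitors 0 of 58 passed (2.09% of all genes did), and values ran from -0.53 for Rpl19, -0.49 for Rpl38 and -0.41 for Rps16 to 0.30 for Rps21, 0.33 for Rps27rt and 0.46 for Rpl36al. In eosinophils 0 of 39 passed (0.335% of all genes did), with Rps7 (-1.55) and Rpl7 (-0.80) among the lowest and Rps26 (0.65), Rps3 (0.57) and Rps3a3 (0.51) highest. Without healthy mouse 1, 2 members were called lower in eosinophils, Rps7 (-2.20) among them (5.01% of all genes were called), with 2 healthy mice left. At an unadjusted p under 0.05 there were 3 members in monocytes or macrophages (10.9% of all genes), 0 in granulocyte progenitors (13%) and 2 in eosinophils (8.38%), and DESeq2 called 0 in each of these classes and in neutrophils. Of all genes with a DESeq2 adjusted p it called 1.41% in monocytes or macrophages, 2.03% in granulocyte progenitors, 6.54% in eosinophils and 1.93% in neutrophils. It gave no adjusted p for 2 of the 60 members in monocytes or macrophages and 12 of the 39 in eosinophils.

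The balance of the subunits within the set was measured as the small subunit's percent of RP counts, which does not depend on haemoglobin. It was 46.8%, 45.5%, 46.4% and 47.4% in healthy and 47.7%, 48.6%, 47.8%, 48.2% and 48.2% in sick joints. Sick joints lay above healthy joints without overlap (46.5% ± 0.800 and 48.1% ± 0.334, exact permutation p = 0.0159). With the copies added the values were 44.5% and 44.9%, and the call was lost (exact permutation p = 0.111). In the classes the sick mean was higher in each of the 5, by 1.26 percentage points in erythroid cells to 3.33 in eosinophils, with adjusted exact permutation p-values of 0.0794 to 0.317. Relative to the RP total of a mouse, 0 of 84 members tested passed between sick and healthy joints (0.885% of all genes did), with 5 at an unadjusted p under 0.05 (13.1% of all genes).

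Which members carry the difference between cell classes was tested within mice, with the mouse as a term in edgeR. These fits were added after the shares were seen. The filter on low counts ran over both classes together, so a member could enter through the class where it is higher. In the sick-against-healthy fit of neutrophils 39 members passed the filter. The counts of calls against neutrophils are therefore no separate support for their lower share. In granulocyte progenitors against neutrophils 53 of 54 members tested were called higher, where 38.0% of all genes were. The median log2 fold change was 1.86 over members tested and -0.02 over all genes. In monocytes or macrophages against neutrophils 53 of 56 were higher (31.7% of all genes), with a median of 1.39. In eosinophils against neutrophils 30 of 34 were higher (32.8% of all genes), with a median of 1.73. In erythroid cells against granulocyte progenitors 48 of 59 were lower (32.9% of all genes), with a median of -0.42. With copies added all 82 members tested in granulocyte progenitors against neutrophils were higher (37.4% of all genes), and 81 of 83 in monocytes or macrophages (35.5%), 46 of 55 in eosinophils (31.8%), and 75 of 83 lower in erythroid cells (32.3%).

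Some members were exceptions. Rps9, a small subunit protein needed for accurate decoding, did not differ past the threshold between granulocyte progenitors and neutrophils (log2 fold change 0.21 ± 0.14 (SE), edgeR adjusted p = 0.176) or between monocytes or macrophages and neutrophils (0.11 ± 0.15 (SE), edgeR adjusted p = 0.512). Rpl7l1 (0.06) and Rps27rt (0.25) were the other members not called in monocytes or macrophages. In eosinophils Rpl37rt, Rpl37 and Rpl35a were among the members not called, with 0.19, 0.32 and 0.64.

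Relative to the RP total of each class, 10 of 45 members tested were higher and 4 lower in granulocyte progenitors than in neutrophils (3.85% and 82.8% of all genes). Rps9 was lowest at -1.50 ± 0.20 (SE), followed by Rpl37, a large subunit zinc finger protein, at -0.96, Rpl37rt at -0.94 and Rps14 at -0.34. Rpsa, the small subunit protein also known as the laminin receptor, was highest at 0.79 ± 0.21 (SE, edgeR adjusted p = 0.00117), with Rps18 at 0.77, Rpl39, which lines the exit tunnel, at 0.76 and Rps7 at 0.71. In monocytes or macrophages against neutrophils 10 of 43 were higher and 4 lower (5.23% and 79.2% of all genes). Rps9 (-1.13), Rpl37rt (-0.77) and Rpl37 (-0.75) were again the lowest, with Rpl37a at -0.36, and Rpsa (0.81), Rpl22 (0.72), Rpl39 (0.67) and Rps18 (0.67) the highest. Both comparisons use the same neutrophils. On this scale the median log2 fold change in granulocyte progenitors against neutrophils was -2.07 over all genes and 0.11 over members tested. The shares of all genes therefore follow largely from the scaling and are no background for members. Most genes tested were called, so the adjustment over all genes was mild for members. These limits also hold for the other class comparisons relative to the RP total. With copies added, 15 of 81 members were higher and 9 lower in granulocyte progenitors (3.29% and 84.3% of all genes), and 15 of 79 higher and 12 lower in monocytes or macrophages (4.46% and 81.2%). Of the calls above, 12 of 14 and 11 of 14 were kept with copies added, and 10 of each remained whichever mouse was left out.

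**Figure D4:**
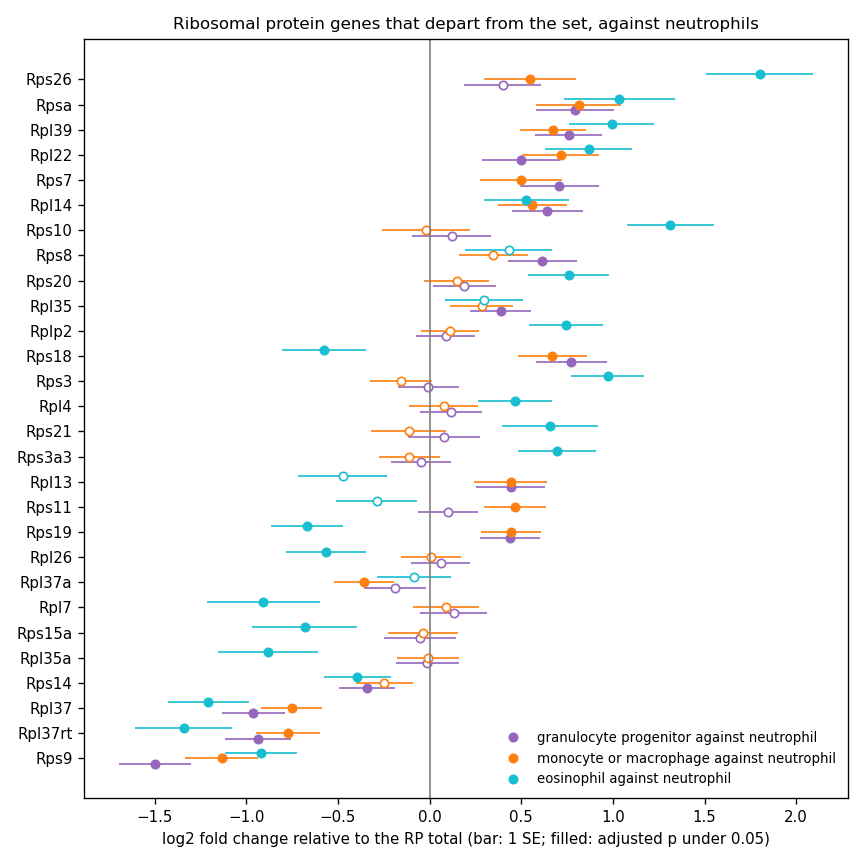
Log2 fold changes relative to the RP total of each class, for the members reported here that were called in at least 1 of 3 comparisons against neutrophils; bars are 1 SE and filled points have an edgeR adjusted p under 0.05. Rps9, Rpl37 and Rpl37rt lie left of 0 in the 3 comparisons, and Rps26 at 1.80 and Rps10 at 1.31 stand out in eosinophils.

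Rps9 (chr7:3703993-3706897, + strand) shows this best. In neutrophils it took 8.97%, 3.04%, 3.54% and 2.97% of RP counts in healthy mice 1 to 4 and 9.42%, 10.9%, 7.24%, 8.70% and 7.92% in sick mice. In granulocyte progenitors of the same mice it took 2.16%, 2.05%, 2.36% and 2.38%, and 2.49%, 2.91%, 1.96%, 2.55% and 2.62%. Neutrophils were above progenitors in 9 of 9 mice, but healthy mice 2 to 4 were far below healthy mouse 1 and the sick mice. Those 3 mice are the ones with 14.8% to 30.6% haemoglobin in gated neutrophils and 55 to 81 neutrophils each, and the part of either was not tested. With healthy mouse 1 as the only healthy mouse, the Rps9 difference relative to the RP total was -1.85. Rps9 has 1 annotated copy, Gm5905, with 8454 counts against 16631, and with it added the value was -1.52.

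Rpl37 took 2.56%, 2.34%, 1.65% and 2.48% of RP counts in neutrophils of healthy mice and 3.91%, 3.83%, 2.33%, 4.17% and 2.49% in sick mice, against 1.27% to 1.68% in granulocyte progenitors over 9 mice. Rpl37rt is an annotated processed pseudogene named after Rpl37, and counting could split reads between them. Its log2 value in each comparison differed from that of Rpl37 by less than 1 SE.

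Eosinophils had their own departures from neutrophils, with 12 members higher and 12 lower of 38 tested (5.53% and 79.4% of all genes). Rps26, a small subunit protein at the exit of the message, was highest at 1.80 ± 0.29 (SE), followed by Rps10 at 1.31 and Rpsa at 1.03. Rps26 took 2.42%, 0.723% and 1.28% of RP counts in eosinophils of healthy mice 1 to 3 and 2.48%, 3.83%, 3.15%, 3.41% and 1.71% in sick mice. In neutrophils of those mice it took 0.679%, 0.703% and 1.65%, and 0.310%, 0.553%, 0.431%, 1.18% and 0.764%. Eosinophils were above neutrophils in 7 of 8 mice, but only just in healthy mouse 2 (0.723% and 0.703%). The exception was healthy mouse 3, which had 39.4% haemoglobin in gated eosinophils and 30.6% in gated neutrophils. The part of haemoglobin in this was not tested. Among the lowest were Rpl37rt (-1.34), Rpl37 (-1.21) and Rps9 (-0.92). With copies added 16 of 62 were higher and 16 lower (7.6% and 69.7% of all genes), and 18 of the 24 calls remained, among them Rps26 at 1.96, and 16 of 24 remained whichever mouse was left out.

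Fewer members parted erythroid cells from granulocyte progenitors. Relative to the RP total, 3 of 65 members tested were higher and 5 lower (43.9% and 10.3% of all genes). Rpl41, the shortest RP and a member without copies, was highest at 0.36 ± 0.11 (SE, edgeR adjusted p = 0.00687), with Rpl8 at 0.29 and Rplp1 at 0.29. Rpl41 took 5.36% to 6.49% of RP counts in erythroid cells and 3.97% to 5.27% in granulocyte progenitors over 9 mice. Rps27a, made as a fusion with ubiquitin, was lowest at -0.58 ± 0.20 (SE, edgeR adjusted p = 0.0152), then Rpl36al (-0.47), Rpl38 (-0.34), Rpl32 (-0.29) and Rpl37a (-0.28). With copies added 3 of 84 were higher and 8 lower (48.8% and 9.88% of all genes). Of the 8 calls 7 remained, but only 3 whichever mouse was left out.

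**Figure D5:**
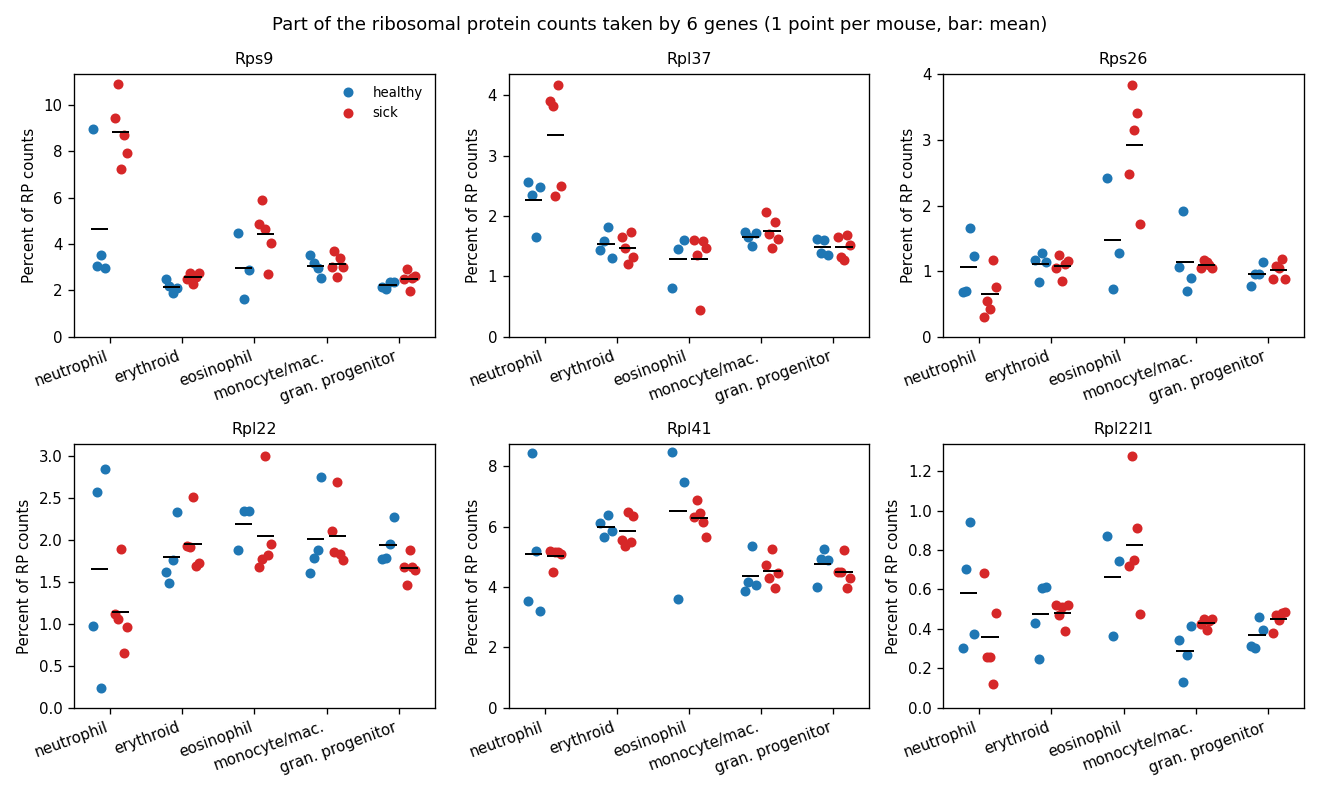
Percent of RP counts taken by Rps9, Rpl37, Rps26, Rpl22, Rpl41 and Rpl22l1 in 5 gated classes, 1 point per mouse with the group mean as a bar. Rps9 reaches 7.24% to 10.9% in neutrophils of healthy mouse 1 and the sick mice, against 1.96% to 2.91% in granulocyte progenitors, and Rps26 is highest in eosinophils.

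Genes that make or use ribosomes were looked at through 7 lists chosen with earlier results known. In the whole joint 1 gene of all lists was called: Eif2ak2, the double-stranded RNA sensor PKR that blocks translation and is induced by interferon. Levels of list genes are CPM after scaling of the libraries (TMM), unlike the raw CPM of members. Eif2ak2 had 18.9, 12.8, 14.7 and 24.3 scaled CPM in healthy and 70.5, 49.5, 79.4, 65.5 and 33.8 in sick joints. Its log2 fold change was 1.72 ± 0.27 (SE, edgeR adjusted p = 0.00605). Every sick joint lay above every healthy joint, and the call held when any 1 mouse was left out. In erythroid cells it rose by 1.96 ± 0.46 (SE; edgeR adjusted p = 0.0276), a call that was lost when any 1 healthy mouse or sick mouse 5 was left out (edgeR adjusted p = 0.0514 to 0.0880). It was the only call among the 10 stress genes tested in the whole joint, with a list median of -0.01.

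Translation factors with TOP starts had 0 calls among 20 tested, with 8 above 0 (48.0% of all genes were) and a median of -0.12 beside -0.02 for all genes. Eef1a1, which brings amino acids to the ribosome, had 737, 777, 929 and 669 scaled CPM in healthy and 594, 525, 604, 585 and 599 in sick joints. On this scale the groups did not overlap (log2 fold change -0.42 ± 0.14 (SE), edgeR adjusted p = 0.174). Eif4b, a helper of the helicase that unwinds messages, had -0.59 ± 0.16 (SE; edgeR adjusted p = 0.108). Ribosome assembly factors had 0 calls among 31, with 21 above 0 and a median of 0.14, and the lowest p-values were those of Eif6 (0.31) and Nop56 (0.29). RNA polymerase I factors had 0 calls among 11 (median 0.09; Tcof1 0.27, Taf1d 0.22), and growth control genes 0 among 13 (median 0.08; Rheb 0.32, Max 0.31). Ribosome rescue and turnover genes had 0 calls among 11, with 2 above 0 and a median of -0.22; Rnf10 had -0.65 ± 0.21 (SE, edgeR adjusted p = 0.174) and Ltn1 -0.39. The ribosomal proteins outside the name rule, Rack1 and Fau among them, had 0 calls (Rack1 -0.13, Fau -0.12). At an unadjusted p under 0.05 these 6 lists held 4, 0, 0, 0, 1 and 0 genes in that order. The stress list held 2 of 10, and 13.8% of all genes were at that level. No list had a call in neutrophils, monocytes or macrophages, granulocyte progenitors or eosinophils.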

How the data were processed

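The authors deposited whole-number counts per gene and cell for 9 mice; per the labels' protocols, several sequencing rounds per sample were merged and the Drop-seq Core Computational Protocol 1.0.1, bcl2fastq, Picard and STAR were used. The submitters' processing notes name the builds GRCm38 and mm9, and the extract protocol names another; how multi-mapping reads were counted is not given in the sources used here. Of 16751 deposited cells 16749 were kept: those with 200 or more genes and no more than 20% mitochondrially encoded counts. No doublet caller was run. Cells were gated by distinct markers detected against the number that free RNA of the mouse would give (z of at least 3, a lead of 1 over other classes, at least 3 markers); the minimum of 3 was chosen after marker purity was seen. Classes with at least 20 cells in at least 3 mice a group were tested. Counts were summed per mouse and class.

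Shares were compared with exact permutation over mice, and within mice with exact sign flips. Genes were tested with edgeR 4.0.16 (filterByExpr, TMM, quasi-likelihood, Benjamini-Hochberg over all genes tested, threshold 0.05) in R 4.3.3, with DESeq2 1.42.0 as an alternative; the procedures were tested on simulated data. The p-values measure the spread between mice. Named were called members, the 3 highest and 3 lowest log2 fold changes, the 5 most abundant members, 7 paralogue pairs, and called genes of each pathway list or the 2 with the smallest p; a few genes that this rule names are not reported here. Near-identical copies were found with blastn 2.17.0+. Class-against-class fits, erythroid stages, the addition of copies and the Rpl3l comparison were added after results were seen. The members and lists were chosen with earlier results of these data known.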

Additional observations from a re-analysis of the deposited data

Results flagged for a closer look

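In 3 of 86 groups of 4 or 5 mice tested, 1 mouse lay far from the others of its group; chance alone flags about 1 in 20 groups. In neutrophils the small subunit took 52.57% of RP counts in sick mouse 6, against 48.05% to 49.05% in the other sick mice. Rpl22, a large subunit protein that also binds RNA outside the ribosome, took 2.439% of RP counts in the whole joint of sick mouse 4, against 1.644% to 1.85% in the other sick mice. Rpl36al took 0.6752% of RP counts in the whole joint of healthy mouse 1, against 0.5562% to 0.5656% in the other healthy mice.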

How the results depend on the processing

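Sick minus healthy, the RP share of the whole joint was 0.508 percentage points. It was -0.527 on the total without haemoglobin, mitochondrially encoded and ribosomal RNA-like genes, -1.67 with copies on that total, 0.316 as a mean over cells (exact permutation p = 0.0159) and -0.0957 with healthy mouse 1 as the only healthy mouse. Leaving out each mouse gave 0.392 to 0.709, the last without healthy mouse 1 (exact permutation p = 0.0357). On the reduced total the class differences were -0.338 in monocytes or macrophages, -0.467 in granulocyte progenitors and -0.403 in eosinophils, and with copies -1.70, -1.60 and -2.23. In neutrophils it moved from -0.132 to -0.535 on that total (adjusted exact permutation p = 0.159), and was -0.426 with copies (exact permutation p = 0.0476, adjusted 0.238). In eosinophils the difference was -0.188 with copies and -0.154 without haemoglobin only. In cells with at least 400 genes it was 0.0840 in neutrophils, which had no test at this setting. In erythroid cells at this setting it was 0.979 (adjusted exact permutation p = 0.0476). With neutrophils untested, that adjustment ran over fewer classes than the main one, so the lower adjusted p does not show a stronger difference. From clusters the difference was 0.0358 in neutrophils. With healthy mouse 1 alone it was 0.0167 in neutrophils, -0.631 in monocytes or macrophages and -1.22 in granulocyte progenitors. Erythroid minus eosinophil was 0.537 on the reduced total and 0.446 with copies.

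In sick mice alone, where the smallest exact p is 0.0625, the other 9 class differences kept their sign with an adjusted exact permutation p of 0.0694: neutrophils minus erythroid cells -1.55, minus monocytes or macrophages -3.07, minus granulocyte progenitors -3.80 and minus eosinophils -1.60, erythroid cells minus monocytes or macrophages -1.52 and minus granulocyte progenitors -2.25, monocytes or macrophages minus granulocyte progenitors -0.734 and minus eosinophils 1.47, and granulocyte progenitors minus eosinophils 2.20. The small subunit difference was 0.445 with copies in the whole joint and 2.09 in erythroid cells with at least 400 genes. Calls between sick and healthy were 2 with copies in neutrophils, and 3 with DESeq2 and 3 without the filter in erythroid cells; leaving out each mouse gave 0 to 4 in neutrophils and 0 to 2 in eosinophils, the highest without healthy mouse 1. With copies, 82 members were higher and 9 relatively lower in granulocyte progenitors, 81 and 12 in monocytes or macrophages, and 46 higher in eosinophils, each against neutrophils, and in erythroid cells against granulocyte progenitors 75 were lower and 8 relatively lower. In that last comparison healthy mouse 1 as the only healthy mouse left 1 relatively higher and 3 relatively lower, and leaving out each mouse gave 3 to 6 relatively lower, with 3 without healthy mouse 4 or sick mouse 4, 5 or 6. With the mouse number as a block, edgeR called 0 members in each sick-against-healthy comparison. The deviations of same-numbered mice had correlations of 0.173, -0.0479 and 0.0701, against -0.203 to 0.221 in pairs with unlike numbers. So few pairs cannot tell whether the number pairs mice. The cause of these changes was not tested, beyond the fewer mice where mice were left out.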
